A study of Rattus norvegicus with 20 samples.

Results

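Sham-operated rats at 30 d were compared with sham-operated rats at 7 d, to see what differed in the dentate gyrus of animals that carried an electrode and were never stimulated. The members were chosen by their labels, as the 5 arrays of sham-operated rats at 30 d and the 5 arrays of sham-operated rats at 7 d, which make 10 of the 20 arrays of the series. The other 10 arrays, 5 at 30 d and 5 at 7 d, came from rats whose amygdala had been electrically stimulated to evoke status epilepticus. All animals were adult male Sprague-Dawley rats with an electrode implanted into the left amygdala, and RNA came from the left dentate gyrus of 1 rat per array.

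The days in the labels count from the day on which time-matched rats were stimulated, so the electrode had been in place for longer than the stated time in both sham-operated groups. The rats at 30 d were also older at death than those at 7 d. Time since surgery and age therefore cannot be told apart here. The values were log2 intensities of Affymetrix Rat Gene 1.1 ST arrays, and every difference below is a log2 difference, 30 d minus 7 d, in which a positive value means higher at 30 d. The number of arrays limits the precision. The labels call the samples biological replicates.

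The dentate gyrus is the entry station of the hippocampus. Its granule cells are kept under strong inhibition by GABA-releasing interneurons and are among the few neurons that are still born in the adult brain. Implanting an electrode is known to activate microglia and astrocytes near the track, and surgery is known to raise glucocorticoids, whose receptor turns on a well-described set of genes. Sham-operated animals can carry such effects without seizures, and their part in the values below was not tested.

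The tissue was first checked against its markers. Prox1, the transcription factor that defines granule cells, measured 9.55, 9.52, 9.82, 9.51 and 9.57 in sham-operated rats at 30 d, against 9.53, 9.66, 9.54, 9.67 and 9.55 at 7 d. All 10 arrays held it at a high level and the groups overlapped. Of the 15 measured markers of mature granule cells, 0 had an unadjusted p under 0.05 in the higher direction and 1 in the lower direction, and their median difference was 0.02. That one was Maml2, a coactivator of Notch signalling, with a difference of -0.20 (SE 0.0645, unadjusted p = 0.00618 in limma).

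The dissection was then checked with markers of the neighbouring CA1 field. Wfs1, which marks CA1 pyramidal cells, measured 7.51, 8.81, 7.27, 7.27 and 7.28 in rats at 30 d, against 7.37, 7.08, 7.79, 7.12 and 7.01 at 7 d. Replicate 2 at 30 d stood above every other sham-operated array, and replicate 3 was the highest at 7 d. The difference was 0.35 with a standard error of 0.350, and the exact permutation test over the 10 arrays gave p = 0.381 (two-sided, n = 5 each). The mean over the 6 measured CA1 markers was 6.18, 6.12, 5.74, 5.59 and 5.52 at 30 d, against 5.80, 5.62, 6.08, 5.64 and 5.60 at 7 d. Replicates 1 and 2 at 30 d and replicate 3 at 7 d were therefore the 3 arrays with most CA1 signal, and they lay in both groups. Of the 6 markers, 0 had an unadjusted p under 0.05, and their median difference was 0.08. Fibcd1 was highest in replicate 1 at 30 d (6.40) and lowest in replicate 5 at 30 d (4.67). In RNA of whole tissue, more cells of a type and more RNA per cell cannot be told apart. Of the 12 measured markers of CA2 and CA3, 0 had an unadjusted p under 0.05 and the median difference was 0.0048. These counts are from limma, and by the exact permutation test the CA1 marker Man1a1 was higher and the CA2 marker Rgs14 lower.

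The spread among the sham-operated arrays had one dominant direction. The first principal component over the probe sets tested held 43.3% of the variance, and its scores were 2.55, 1.68, 17.3, 5.68 and 6.50 at 30 d, against -11.3, 6.38, -21.5, 6.13 and -13.4 at 7 d. Replicates 2 and 4 at 7 d lay among the rats at 30 d, and replicates 1, 3 and 5 at 7 d lay on the other side. The second component held 18.0% of the variance and set replicate 3 at 30 d apart, with a score of 17.6. Correlations between 2 sham-operated arrays ran between 0.9813 and 0.9977, with a median of 0.9962 within 30 d, 0.9939 within 7 d and 0.9940 between the groups. The share of probe sets above background was 79.0% to 80.8% at 30 d and 79.8% to 80.1% at 7 d.

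**Figure D1:**
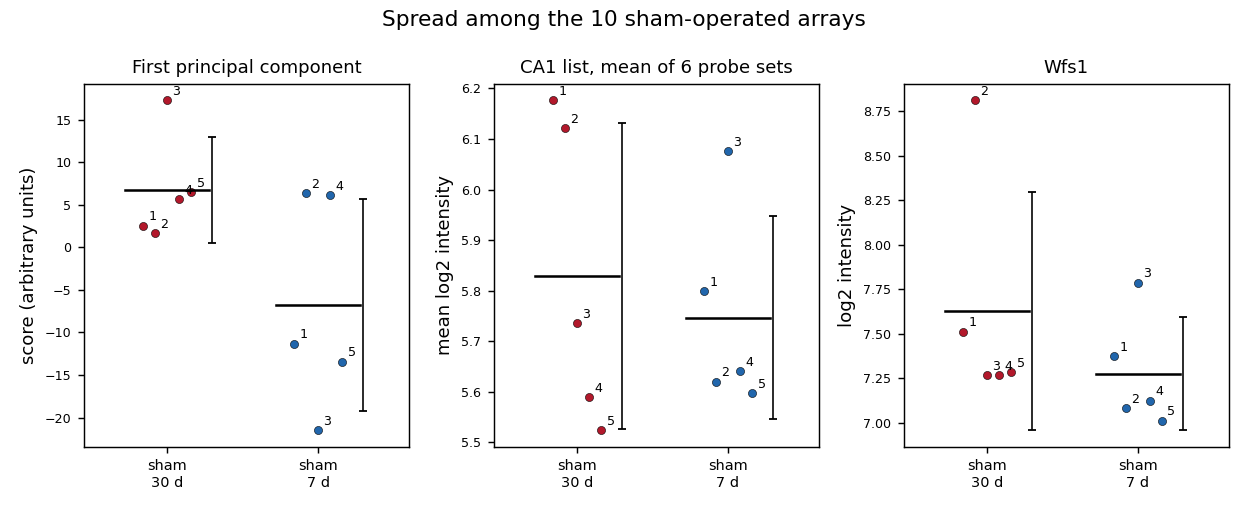
Score on the first principal component (arbitrary units), mean log2 intensity of the 6 CA1 markers and log2 intensity of Wfs1 in the 5 sham-operated rats at 30 d and the 5 at 7 d. Each point is 1 array with its replicate number, the bar is the group mean and the error bar the SD. Replicates 2 and 4 at 7 d score 6.38 and 6.13 on the component, among the rats at 30 d, and Wfs1 reaches 8.81 in replicate 2 at 30 d.

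The same split at 7 d was seen in single genes. Ap1s2, a subunit of the adaptor complex that forms transport vesicles, had the highest loading on the main axis of spread within the groups and was picked for that reason after its values were seen. It measured 7.18, 7.33, 7.41, 7.27 and 7.29 at 30 d, against 6.38, 7.45, 5.82, 7.41 and 5.93 at 7 d. The rats at 30 d were tightly grouped, while at 7 d replicates 2 and 4 were at the level of 30 d and replicates 1, 3 and 5 were below it. The difference was 0.69 (SE 0.297), and the exact permutation test gave p = 0.167 (two-sided, n = 5 each). The axis was computed from deviations from the group means and held 36.9% of their variance. Its sign was set to run with the difference of 30 d and 7 d, so that choice fixed which end was higher. Wfs1 and Mpped1, from the 6 measured CA1 markers, were among the 10 probe sets at its opposite end (loadings -0.025 and -0.029). The axis did not run with every CA1 marker, since Man1a1, another of the 6, had a loading of -0.00089. Among the 1580 probe sets with the highest loadings, 711 had an unadjusted p under 0.05 and were higher at 30 d and 1 was lower. Among the 1580 with the lowest loadings, 2 were higher and 335 lower. The arrays that define this axis also enter the comparison, and its part in the differences was not tested.

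No probe set passed the test between sham-operated rats at 30 d and at 7 d. Of 15800 probe sets tested, 0 were higher and 0 lower in limma at an adjusted p under 0.05 (Benjamini-Hochberg, percent called 0%). The smallest adjusted p was 0.341, which 905 probe sets shared. At an unadjusted p under 0.05, 1246 were higher (7.89%) and 861 lower (5.45%), or 13.3% in all. In 107 probe sets (0.677%) all rats at 30 d lay above all rats at 7 d, and in 113 (0.715%) all lay below. That fit took the spread from all 4 groups. Limma on the 10 sham-operated arrays alone still gave 1212 higher and 776 lower at an unadjusted p under 0.05. The exact permutation test over the same 10 arrays gave 719 higher (4.55%) and 721 lower (4.56%) with a p under 0.05 (two-sided, n = 5 each). The excess of higher over lower probe sets was therefore seen with limma on these arrays and not with the permutation test. These shares are the background for each count of genes given below, which come from limma unless the permutation test is named.

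The differences were also small. The median size of a difference was 0.065, and the median SD within a group was 0.0991 at 30 d and 0.106 at 7 d. The 95% interval of a difference reached 0.146 to either side at the median probe set. A difference beyond 0.5 was seen in 30 probe sets and beyond 1 in 3. These 3 were probe sets of Ldha, Car3 and Pld5, in each of which rats of 1 group differed among themselves by more than 1.

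The call depended on how the arrays were weighted. When limma gave each array a weight from its own spread, 902 probe sets were higher and 492 lower at an adjusted p under 0.05. In that fit replicate 3 at 30 d (weight 0.309) and replicates 2, 3 and 4 at 7 d (0.585, 0.642 and 0.480) counted least. With the axis of spread within groups as a covariate in the 10 sham-operated arrays, 691 were higher and 273 lower, but the axis came from the same arrays, so these p values are too small. Single rats also moved the counts at an unadjusted p. Without replicate 1, 3 or 5 at 7 d, 765, 557 or 640 probe sets were higher and 543, 429 or 475 lower, and without replicate 3 at 30 d 552 were lower. With the CA1 mean as a covariate 1370 were higher and 945 lower, and without replicates 1 and 2 at 30 d 1302 and 1011, with 0 at an adjusted p under 0.05 in both.

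The probe sets with the smallest unadjusted p are described next, 10 in each direction. They were chosen by that p, so their values describe them and their p values support nothing further. None passed the adjusted threshold. The higher ones were Glod4, N5, Ntmt2, Colec12, Pcdhb19, Katnal1, Cd274, Ift25, Rpl15 and Mier1, with differences of 0.24 to 0.53.

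Glod4, a protein with a glyoxalase domain (GRCr8, chromosome 10, 61575770 to 61594111), measured 5.9998, 6.06, 6.16, 6.23 and 6.21 at 30 d, against 5.57, 5.93, 5.65, 6.03 and 5.76 at 7 d. Only replicate 4 at 7 d reached the range of 30 d. The difference was 0.34 (SE 0.0754, adjusted p = 0.341 in limma). Ntmt2, which methylates the amino termini of proteins (chromosome 13, 78585663 to 78627144), measured 4.94, 5.06, 5.05, 4.49 and 5.35 at 30 d, against 4.60, 4.36, 4.73, 4.31 and 4.43 at 7 d. Its replicate 4 at 30 d lay among the rats at 7 d. The difference was 0.49 (SE 0.113), and without that rat it was 0.62 with an adjusted p of 0.0256 in limma, the only probe set to pass when 1 sham-operated array was left out.

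Rpl15, a protein of the large ribosomal subunit (chromosome 15, 9934663 to 9937946), measured 6.01, 5.98, 6.18, 6.24 and 6.13 at 30 d, against 5.72, 5.91, 5.54, 5.79 and 5.76 at 7 d. The groups did not overlap and the difference was 0.36 (SE 0.0927). Ribosomal protein genes have many copies in the genome, so the probe set may not read 1 gene alone. Of 87 ribosomal protein genes measured, a group added after the values were seen, 2 were higher and 7 lower at an unadjusted p under 0.05, and the median difference was -0.03. With the exact permutation test 2 were higher and 2 lower, and 3 of the 9 found in limma were kept. Cd274, the immune checkpoint ligand PD-L1 (chromosome 1, 236526215 to 236549956), measured 5.39, 5.30, 5.41, 5.13 and 5.58 at 30 d, against 5.01, 5.28, 4.72, 4.95 and 4.85 at 7 d. Replicate 2 at 7 d lay above replicate 4 at 30 d, and the difference was 0.40 (SE 0.102).

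Mier1, a subunit of corepressor complexes (chromosome 5, 123105114 to 123156653), had the largest difference of the 10, 0.53 (SE 0.138). It measured 6.08, 6.22, 6.58, 6.22 and 6.61 at 30 d, against 5.77, 6.19, 5.42, 6.09 and 5.59 at 7 d, where replicates 2 and 4 were again the highest. Colec12, a scavenger receptor of the collectin family, differed by 0.36, Katnal1, a subunit of the microtubule-severing katanin, by 0.28, and Ift25, part of the transport machinery of cilia, by 0.24. Pcdhb19, a protocadherin of the clustered beta family, differed by 0.46, and its close relatives in the cluster may share its probes. N5 and Ift25 were, with Rpl15, the members of the 10 in which the groups did not overlap.

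The lower ones were Lemd2, Amer3, Fam53a, Slc25a25, Spaca9, Tp53bp1, Tbcel, Smpd3, Fam84b and Snrnp70, with differences of -0.38 to -0.16. Lemd2, a protein of the inner nuclear membrane (chromosome 20, 5284275 to 5298281), had the smallest p of all probe sets. It measured 6.07, 5.96, 5.86, 5.94 and 5.95 at 30 d, against 6.24, 6.25, 6.38, 6.19 and 6.30 at 7 d, with no overlap. The difference was -0.31 (SE 0.0664, unadjusted p = 0.000114 and adjusted p = 0.341 in limma), and the exact permutation p was 0.00794, the smallest that 5 against 5 arrays can give (two-sided).

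Smpd3, the neutral sphingomyelinase that makes ceramide at membranes (chromosome 19, 51072209 to 51155639), measured 7.60, 7.60, 7.26, 7.61 and 7.62 at 30 d, against 7.94, 7.69, 7.98, 7.72 and 7.86 at 7 d. Replicate 3 at 30 d stood below the other rats of its group, and the groups did not overlap. The difference was -0.30 (SE 0.0787). Snrnp70, a core protein of the U1 splicing particle (chromosome 1, 104992518 to 105012851), measured 9.70, 9.74, 9.85, 9.89 and 9.58 at 30 d, against 10.07, 9.72, 10.30, 10.11 and 10.23 at 7 d. Replicate 2 at 7 d alone lay within the range of 30 d, and the difference was -0.33 (SE 0.0892).

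Tp53bp1, which is recruited to DNA breaks, differed by -0.23, and Slc25a25, a mitochondrial carrier of ATP-Mg and phosphate, by -0.36. Amer3, a partner of the APC protein, had the largest difference of these 10, -0.38. Tbcel, a relative of a tubulin-folding cofactor, differed by -0.19 and Fam84b by -0.34. Fam53a (-0.23), Spaca9 (-0.16) and Tbcel also had no overlap between the groups, although for Tbcel the highest rat at 30 d (7.13) and the lowest at 7 d (7.14) nearly met.

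**Figure D2:**
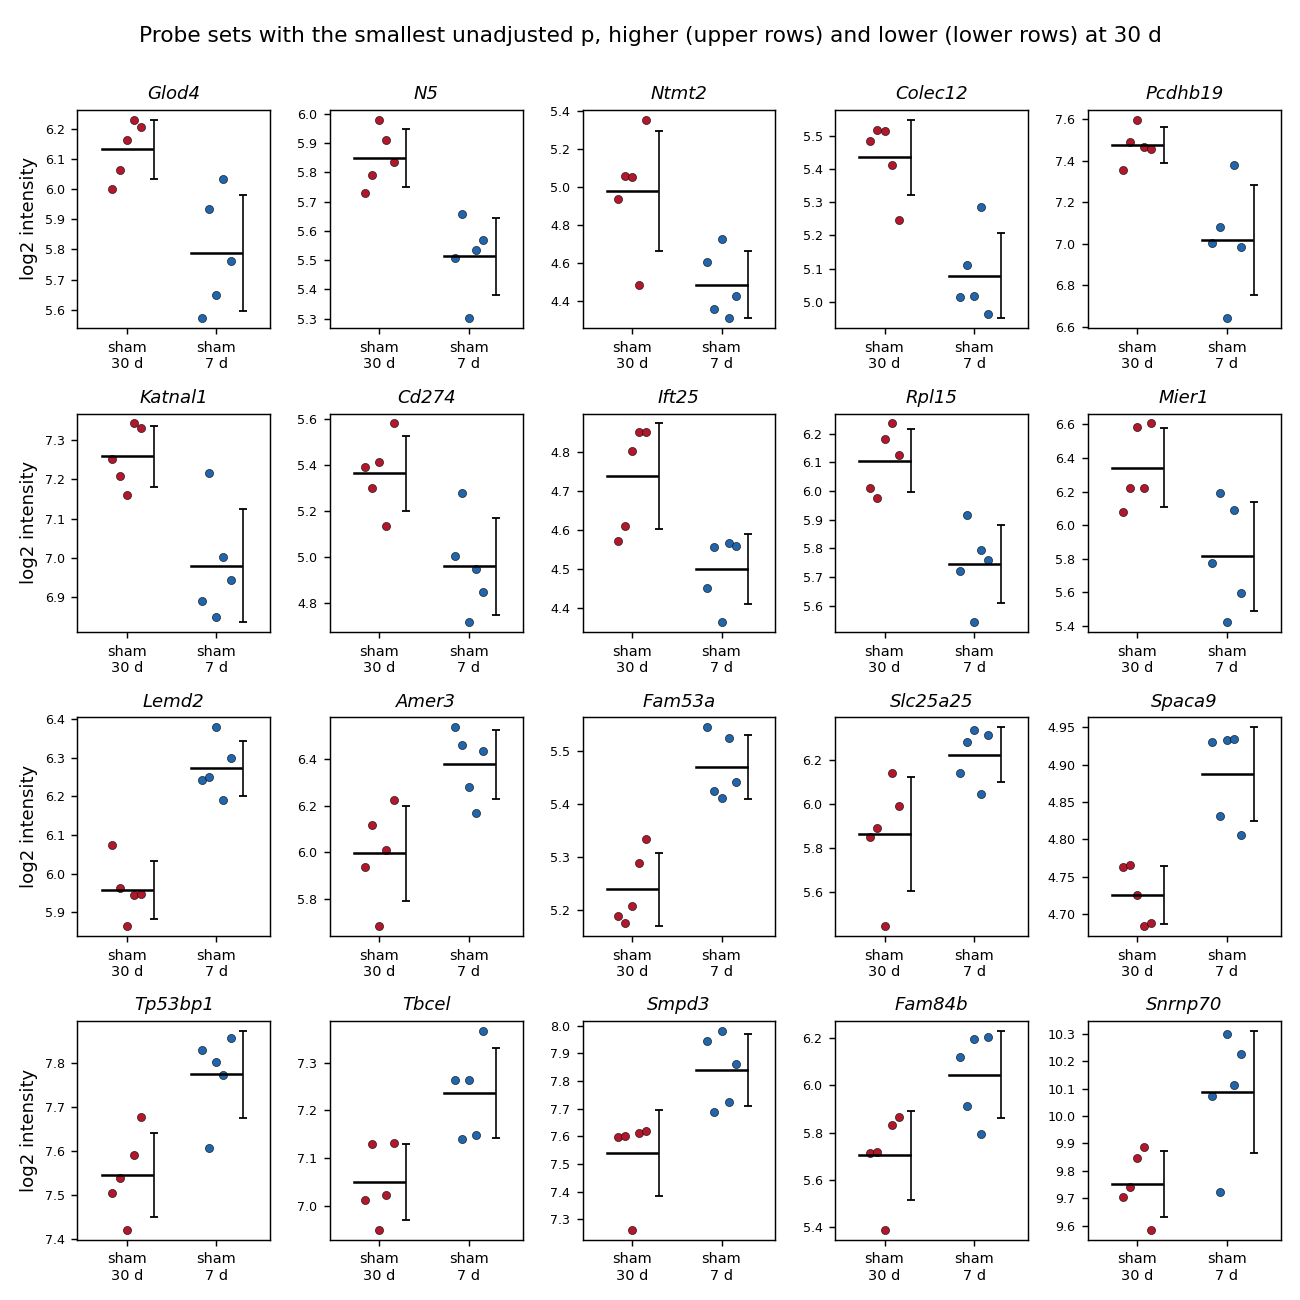
Log2 intensity of the 10 probe sets with the smallest unadjusted p in the higher direction (upper rows) and in the lower direction (lower rows) in sham-operated rats at 30 d and at 7 d. Points are single arrays, bars are means and error bars are SDs (n = 5 each), and each panel has its own axis, which does not start at 0. Lemd2 shows no overlap, with 5.86 to 6.07 at 30 d and 6.19 to 6.38 at 7 d.

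The genes were then grouped by cell type and process. In all 32 lists with 474 measured genes were described by their counts at an unadjusted p under 0.05 and their median difference, beside a median of -0.0023 over all probe sets. The lists were chosen with earlier results of these data known. At an adjusted p under 0.05, 0 members of any list were called. Several lists with a median above 0.07 or counts on one side are described first.

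Chaperones of the endoplasmic reticulum fold secreted and membrane proteins, and their genes are turned on when unfolded proteins build up there. Many of them carry the endoplasmic reticulum stress element in the promoter, which is bound by NF-Y together with ATF6 or XBP1. Of the 12 listed genes, all were measured, 4 were higher and 0 lower at an unadjusted p under 0.05, and the median difference was 0.07. The 4 were Pdia4, Hsp90b1, Hspa5 and Xbp1, and the first 3 also had an exact permutation p under 0.05.

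The promoters of the list are shown where they held that element. The element searched was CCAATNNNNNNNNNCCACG, on both strands, in RefSeq promoters of GRCr8 (250 bases before to 50 after the start). The motif was chosen after the values were seen. It was held by 22 of 33469 promoters (0.0657%) and by promoters of 5 of the 10 listed genes that had one, namely Hspa5, Hsp90b1, Xbp1, Calr and Creld2. Capitals mark both outer parts of the element, which read as their reverse complement where it lies on the other strand, and Hsp90b1 holds the element on each strand once.
Hspa5 (chr3:38452766-38453065, plus strand): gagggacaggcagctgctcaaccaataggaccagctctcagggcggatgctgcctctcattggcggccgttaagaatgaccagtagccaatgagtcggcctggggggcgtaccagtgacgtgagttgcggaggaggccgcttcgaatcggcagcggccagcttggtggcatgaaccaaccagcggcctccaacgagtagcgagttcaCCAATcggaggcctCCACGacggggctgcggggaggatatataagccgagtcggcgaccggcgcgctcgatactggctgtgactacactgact
Hsp90b1 (chr7:23012244-23012543, minus strand): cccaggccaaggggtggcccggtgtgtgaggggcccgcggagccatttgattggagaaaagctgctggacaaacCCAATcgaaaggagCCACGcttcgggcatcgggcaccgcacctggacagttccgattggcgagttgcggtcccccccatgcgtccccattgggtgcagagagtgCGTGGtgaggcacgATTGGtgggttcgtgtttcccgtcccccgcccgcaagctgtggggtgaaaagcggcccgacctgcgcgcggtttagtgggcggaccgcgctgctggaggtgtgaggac
Xbp1 (chr14:84604373-84604672, plus strand): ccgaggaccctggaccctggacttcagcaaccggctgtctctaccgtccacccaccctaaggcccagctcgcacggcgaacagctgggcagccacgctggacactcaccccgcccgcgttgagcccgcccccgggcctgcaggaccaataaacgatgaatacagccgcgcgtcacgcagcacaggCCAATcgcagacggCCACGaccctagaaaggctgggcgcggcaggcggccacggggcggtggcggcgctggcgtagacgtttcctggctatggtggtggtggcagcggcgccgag
Calr (chr19:40213117-40213416, plus strand): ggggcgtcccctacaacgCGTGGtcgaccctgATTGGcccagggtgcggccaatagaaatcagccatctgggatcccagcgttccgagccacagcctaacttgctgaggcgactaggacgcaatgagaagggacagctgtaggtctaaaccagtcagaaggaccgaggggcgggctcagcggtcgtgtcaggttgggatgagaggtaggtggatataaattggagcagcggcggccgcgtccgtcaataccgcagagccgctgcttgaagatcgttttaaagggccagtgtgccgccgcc
Creld2 (chr7:121789134-121789433, plus strand): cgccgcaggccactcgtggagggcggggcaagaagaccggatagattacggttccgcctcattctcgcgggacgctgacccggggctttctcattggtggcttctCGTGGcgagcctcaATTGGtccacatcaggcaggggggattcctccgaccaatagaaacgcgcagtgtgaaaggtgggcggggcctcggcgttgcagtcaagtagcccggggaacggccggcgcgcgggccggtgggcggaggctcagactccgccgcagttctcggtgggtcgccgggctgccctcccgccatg

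A match describes the letters of these windows and is not evidence of a bound site. The list is made of genes known for this response, so the share is a property of the list and not of the comparison. Hspa5, the chaperone BiP, measured 10.19, 10.17, 10.07, 10.15 and 10.14 at 30 d, against 9.71, 9.95, 10.02, 10.17 and 9.91 at 7 d. Replicate 4 at 7 d was at the level of 30 d and the others lay below, and the difference was 0.19 (SE 0.0719, unadjusted p = 0.0144 in limma, exact permutation p = 0.0397).

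Hsp90b1, the chaperone GRP94, measured 9.88, 9.82, 9.81, 9.81 and 9.82 at 30 d, against 9.42, 9.78, 9.58, 9.80 and 9.49 at 7 d. The groups did not overlap, and replicates 2 and 4 at 7 d were close to the rats at 30 d. The difference was 0.21 (SE 0.0691, exact permutation p = 0.00794). Xbp1, a transcription factor of this response, measured 9.79, 9.71, 9.59, 9.64 and 9.77 at 30 d, against 9.29, 9.81, 9.03, 9.57 and 9.14 at 7 d, a difference of 0.33 (SE 0.140). The groups overlapped, and the exact permutation test gave p = 0.0873 for Xbp1 (two-sided, n = 5 each).

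Pdia4, a protein disulfide isomerase with no match to the element, measured 6.89, 6.88, 6.73, 6.88 and 6.88 at 30 d, against 6.53, 6.70, 6.59, 6.78 and 6.61 at 7 d. Replicate 4 at 7 d lay above replicate 3 at 30 d, and the difference was 0.21 (SE 0.0569, unadjusted p = 0.0013 in limma, exact permutation p = 0.0159). Calr, the calcium-binding chaperone calreticulin, and Creld2 both held the element and did not pass the unadjusted threshold, with differences of 0.11 (SE 0.0675) and 0.02 (SE 0.0672). Among the cytosolic and mitochondrial heat shock genes, 2 of 9 were higher, namely the mitochondrial chaperonin Hspd1 (0.36) and the cochaperone Dnaja1 (0.38), and 0 were lower. By the exact permutation test Hspd1 and Hspa8 were higher and Dnajb1 lower, while Dnaja1 gave p = 0.0873.

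Genes of GABA signalling came next, since granule cells depend on this inhibition. Of 9 measured subunits of the GABA-A receptor, the chloride channel that GABA opens, 3 were higher and 0 lower at an unadjusted p under 0.05, and the median difference was 0.18. Gabra2 measured 10.12, 10.11, 10.14, 10.11 and 10.21 at 30 d, against 9.80, 10.07, 9.65, 10.04 and 9.79 at 7 d. The groups did not overlap, and replicates 2 and 4 at 7 d were close to 30 d. The difference was 0.27 (SE 0.0832, unadjusted p = 0.00407 in limma, exact permutation p = 0.00794).

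Gabra4, a subunit known from granule cells, measured 9.30, 9.38, 9.71, 9.48 and 9.43 at 30 d, against 9.002, 9.59, 8.69, 9.34 and 8.88 at 7 d, and Gabra3 measured 9.09, 9.12, 9.36, 8.69 and 8.98, against 8.34, 9.18, 7.59, 8.98 and 8.21. In both, replicates 2 and 4 at 7 d overlapped the rats at 30 d. The differences were 0.36 (SE 0.145) for Gabra4 and 0.59 (SE 0.231) for Gabra3. The exact permutation test gave p = 0.0952 for Gabra4 and 0.103 for Gabra3 (two-sided, n = 5 each), so Gabra2 was the 1 subunit of the 9 under 0.05 by that test. Gabra3 was among the 10 probe sets with the highest loadings on the axis of spread within groups. Gabrd, the subunit of extrasynaptic receptors on granule cells, differed by -0.11 (SE 0.124), with a 95% interval of -0.37 to 0.15.

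Gad2, one of the enzymes that make GABA, measured 8.58, 8.75, 8.79, 8.63 and 8.59 at 30 d, against 8.13, 8.47, 8.20, 8.44 and 8.13 at 7 d, without overlap. The difference was 0.39 (SE 0.142, unadjusted p = 0.0115 in limma). It was 1 of 18 measured genes of GABA interneurons that were higher (5.56%, against 7.89% of all probe sets), 0 were lower, and their median difference was 0.09. By the exact permutation test 3 were higher, namely Gad2, Erbb4 and Nxph1, and 1 was lower. The lower one was Slc32a1, the vesicular transporter that loads GABA for release, which measured 6.52, 6.47, 6.27, 6.27 and 6.26 at 30 d, against 6.48, 6.37, 6.76, 6.73 and 6.52 at 7 d. The groups overlapped, and the difference was -0.22 (SE 0.107, unadjusted p = 0.0552 in limma, exact permutation p = 0.0476). Of 15 ionotropic glutamate receptor genes, 2 were higher, namely the AMPA receptor subunit Gria4 (0.28) and the kainate receptor subunit Grik1 (0.22), and 0 were lower. Among 21 sodium, calcium and HCN channel genes, 2 were higher and 3 lower, with the sodium channel subunit Scn2b at -0.28 and the T-type calcium channel Cacna1h at -0.20. Of 28 potassium channel genes 1 was higher and 0 lower. These channel counts changed with the exact permutation test. It gave 1 higher and 4 lower sodium, calcium and HCN channel genes, among them Scn2b and Cacna1h, and kept 2 of the 5 found in limma. For potassium channel genes it gave 1 higher and 1 lower, and kept 0 of the 1 found in limma.

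Targets of the glucocorticoid receptor had counts on the lower side. Of 16 measured genes, 0 were higher and 4 lower at an unadjusted p under 0.05, and the median difference was -0.07. The 4 were Per1, Tsc22d3, Angptl4 and Mt1, which by the exact permutation test were also under 0.05, with Map3k6 as the fifth. Per1, also a clock gene, measured 7.42, 7.57, 7.30, 7.39 and 7.53 at 30 d, against 7.72, 7.72, 7.72, 7.61 and 7.62 at 7 d, without overlap. The difference was -0.24 (SE 0.0654, unadjusted p = 0.00157 in limma).

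Tsc22d3, the glucocorticoid-induced leucine zipper protein, measured 5.93, 5.83, 5.68, 5.85 and 5.89 at 30 d, against 6.12, 5.89, 6.07, 6.004 and 6.16 at 7 d. Replicate 2 at 7 d lay within the range of 30 d, and the difference was -0.21 (SE 0.0613). Angptl4, an inhibitor of lipoprotein lipase, measured 4.81, 4.70, 4.58, 4.80 and 4.89 at 30 d, against 4.91, 4.98, 5.07, 4.93 and 4.99 at 7 d, without overlap and with a difference of -0.22 (SE 0.0661).

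Mt1, the metal-binding protein metallothionein 1, measured 8.18, 7.99, 8.24, 8.31 and 8.07 at 30 d, against 8.93, 8.79, 8.11, 8.50 and 8.85 at 7 d. Only replicate 3 at 7 d lay among the rats at 30 d. The difference was -0.48 (SE 0.196), and a second Mt1 probe set gave -0.50.

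Of 16 clock genes 1 was higher and 1 lower, with a median of -0.08. Bmal1, which drives the expression of the period genes, measured 7.08, 7.01, 7.04, 7.26 and 7.02 at 30 d, against 6.86, 6.64, 7.07, 6.95 and 7.00 at 7 d, a difference of 0.18 (SE 0.0828). Replicate 4 at 30 d stood above the rest, and the groups overlapped (exact permutation p = 0.0556). The hour of tissue collection was not given in the sources used here, and its part in these values was not tested. The E-box CACGTG was found in 5 of 19 promoters of the clock list and in 1 of 24 of the glucocorticoid list, against 6.42% of all promoters, and not in those of Per1, Tsc22d3, Angptl4 or Mt1. The cAMP response element TGACGTCA was found in 0 promoters of either list or of the chaperone list, against 1.83% of all promoters. Both motifs were searched as exact matches, from 250 bases before to 50 after the start. Sites outside these windows were not searched, so a gene without a match may still hold the motif elsewhere.

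**Figure D3:**
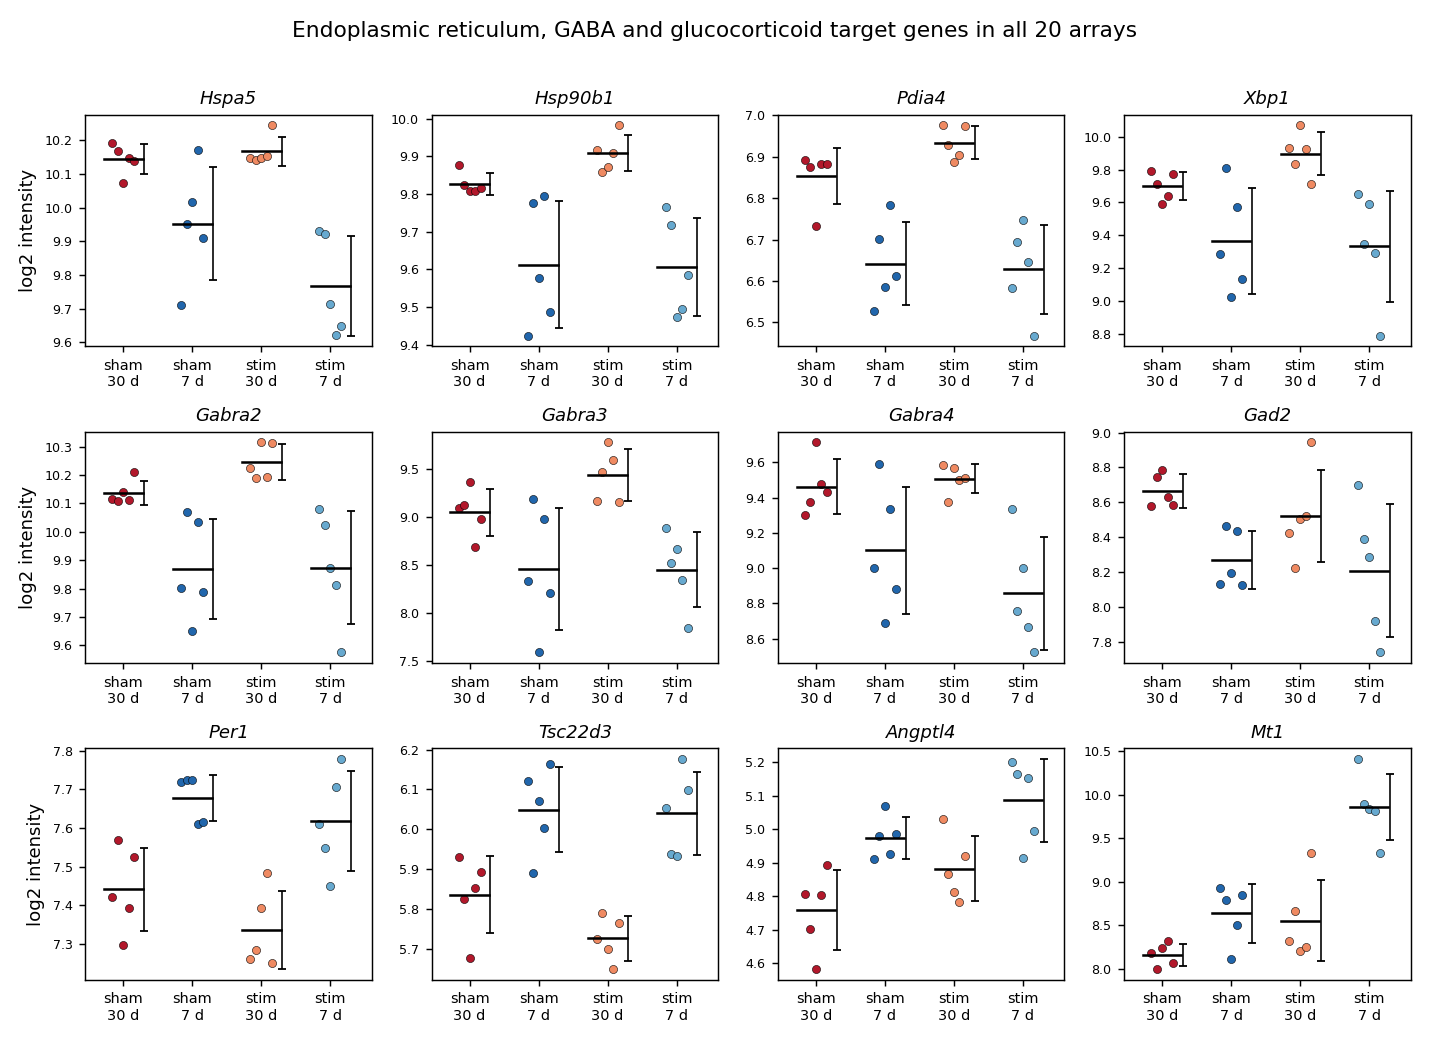
Log2 intensity of chaperone genes of the endoplasmic reticulum (upper row), GABA-A receptor genes and Gad2 (middle row) and glucocorticoid target genes (lower row) in sham-operated rats at 30 d and 7 d and in stimulated rats (stim) at 30 d and 7 d. Points are arrays, bars means and error bars SDs (n = 5 each), and the axes differ between panels and do not start at 0. Per1 runs between 7.30 and 7.57 at 30 d and between 7.61 and 7.72 at 7 d in sham-operated rats.

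Genes of glial cells and of injury were compared because all rats carried an electrode. Gfap, the intermediate filament of astrocytes that rises in gliosis, measured 9.52, 9.56, 9.24, 9.50 and 9.79 in sham-operated rats at 30 d, against 9.41, 9.55, 9.59, 9.40 and 9.47 at 7 d. The groups overlapped throughout. The difference was 0.04 (SE 0.149, 95% interval -0.27 to 0.35). Of 20 measured genes of reactive astrocytes, 0 had an unadjusted p under 0.05 in limma and the median difference was 0.03, while 2 were higher by the exact permutation test. These were Vim, the intermediate filament vimentin, and Cp, the copper-binding ferroxidase ceruloplasmin. Vim lay between 8.02 and 8.31 at 30 d and between 7.49 and 8.04 at 7 d, a difference of 0.29 (SE 0.172, unadjusted p = 0.111 in limma, exact permutation p = 0.0159). Cp differed by 0.20 (SE 0.175, unadjusted p = 0.261 in limma, exact permutation p = 0.0238). Of 8 complement genes, 8 MHC class II genes and 17 interferon response genes, 0 had an unadjusted p under 0.05 in limma, with medians of -0.0043, -0.0094 and 0.036, and by the exact permutation test 1 interferon response gene, Psmb9, was higher.

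Of 24 genes of microglia and macrophages 1 was higher and 0 lower, with a median of 0.06. That one was the purine receptor P2ry13, which measured 6.38, 6.50, 6.49, 6.17 and 6.55 at 30 d, against 6.003, 6.34, 5.98, 6.37 and 5.89 at 7 d. Replicates 2 and 4 at 7 d were the highest of their group and overlapped 30 d, and the difference was 0.30 (SE 0.113). Its neighbour P2ry12, a purine receptor of resting microglia, measured 6.72, 6.62, 6.94, 6.75 and 6.80 at 30 d, against 6.48, 6.66, 6.34, 6.56 and 6.39 at 7 d. Only replicate 2 at 7 d reached the range of 30 d, and the difference was 0.28 (SE 0.149, unadjusted p = 0.0781 in limma, exact permutation p = 0.0159). By the exact permutation test 3 genes of the list were higher and 1 lower. Cx3cr1, the fractalkine receptor, differed by 0.16 (SE 0.144).

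Genes of resting astrocytes were higher in 3 of 16 cases and lower in 1, with a median of 0.03. The water channel Aqp4 (0.27), the glutamate transporter Slc1a3 (0.19) and the connexin Gjb6 (0.26) were the higher ones. Gjb6 measured 7.34, 7.30, 7.34, 7.32 and 7.37 at 30 d, against 6.88, 7.28, 7.07, 7.15 and 6.98 at 7 d, without overlap. Agt, angiotensinogen, was the lower one, at -0.25 (SE 0.110). Aqp4 and Gjb6 were also under 0.05 by the exact permutation test, while Slc1a3 gave p = 0.0794 and Agt p = 0.0556. In that test 3 genes of this list were higher and 0 lower. Of 19 endothelial and pericyte genes 4 were higher and 0 lower, with a median of 0.10. They were the potassium channel partners Abcc9 (0.32) and Kcnj8 (0.22), the pericyte gene Rgs5 (0.16) and Abcb1a (0.25), a drug efflux pump of the blood-brain barrier. A second Abcc9 probe set gave 0.13 (unadjusted p = 0.0595 in limma). Abcc9 in replicate 2 at 7 d, 5.97, was among the values of 30 d. By the exact permutation test Abcb1a, Kcnj8 and Abcc9 were higher, while Rgs5 gave p = 0.0714.

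Myelin genes were split. Of 19 measured, 3 were higher and 4 lower at an unadjusted p under 0.05, and the median difference was -0.12. The structural myelin protein Mbp measured 9.65, 9.54, 9.33, 9.42 and 9.63 at 30 d, against 9.85, 9.64, 9.85, 9.55 and 9.83 at 7 d, a difference of -0.23 (SE 0.0784). Replicates 2 and 4 at 7 d overlapped the rats at 30 d. Mag and Fa2h, an adhesion protein and a lipid hydroxylase of myelin, both differed by -0.23, while Ermn, a cytoskeletal protein of oligodendrocytes, differed by 0.35 (SE 0.140). By the exact permutation test 3 myelin genes were higher and 3 lower, and Fa2h gave p = 0.0794. Of 13 genes of oligodendrocyte progenitors and newly formed oligodendrocytes 0 were higher and 1 lower, with a median of -0.0056.

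Genes of adult neurogenesis showed few differences. Dcx, the marker of newborn neurons, measured 7.17, 7.36, 7.22, 7.24 and 7.25 at 30 d, against 7.28, 7.39, 7.27, 7.29 and 7.23 at 7 d. The groups overlapped, and the difference was -0.04 (SE 0.0649, 95% interval -0.18 to 0.09). Of 16 genes of newborn granule neurons 0 were higher and 1 lower, the transcription factor Bhlhe22 at -0.26. Of 12 neural stem cell genes 1 was higher and 1 lower, and of 16 cell cycle genes 0 had an unadjusted p under 0.05. The same count of 0 was seen for 25 immediate early genes, 19 extracellular matrix genes, 15 neuropeptide genes, 15 growth factor genes, 11 choroid plexus markers and 5 blood cell markers. These counts are from limma. By the exact permutation test the immediate early genes Junb and Egr1, the cell cycle gene Ccnd1 and the growth factor Tgfb1 were lower. Among the newborn granule neuron genes, Draxin and Bhlhe22 were lower and Cd24 higher by that test. Of 16 markers of meninges and fibroblasts 0 were higher and 2 lower in limma, namely Igfbp2 (-0.28, exact permutation p = 0.0159) and Igf2 (-0.25, exact permutation p = 0.119). Of 15 cholesterol synthesis genes 1 was higher and 0 lower.

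**Figure D4:**
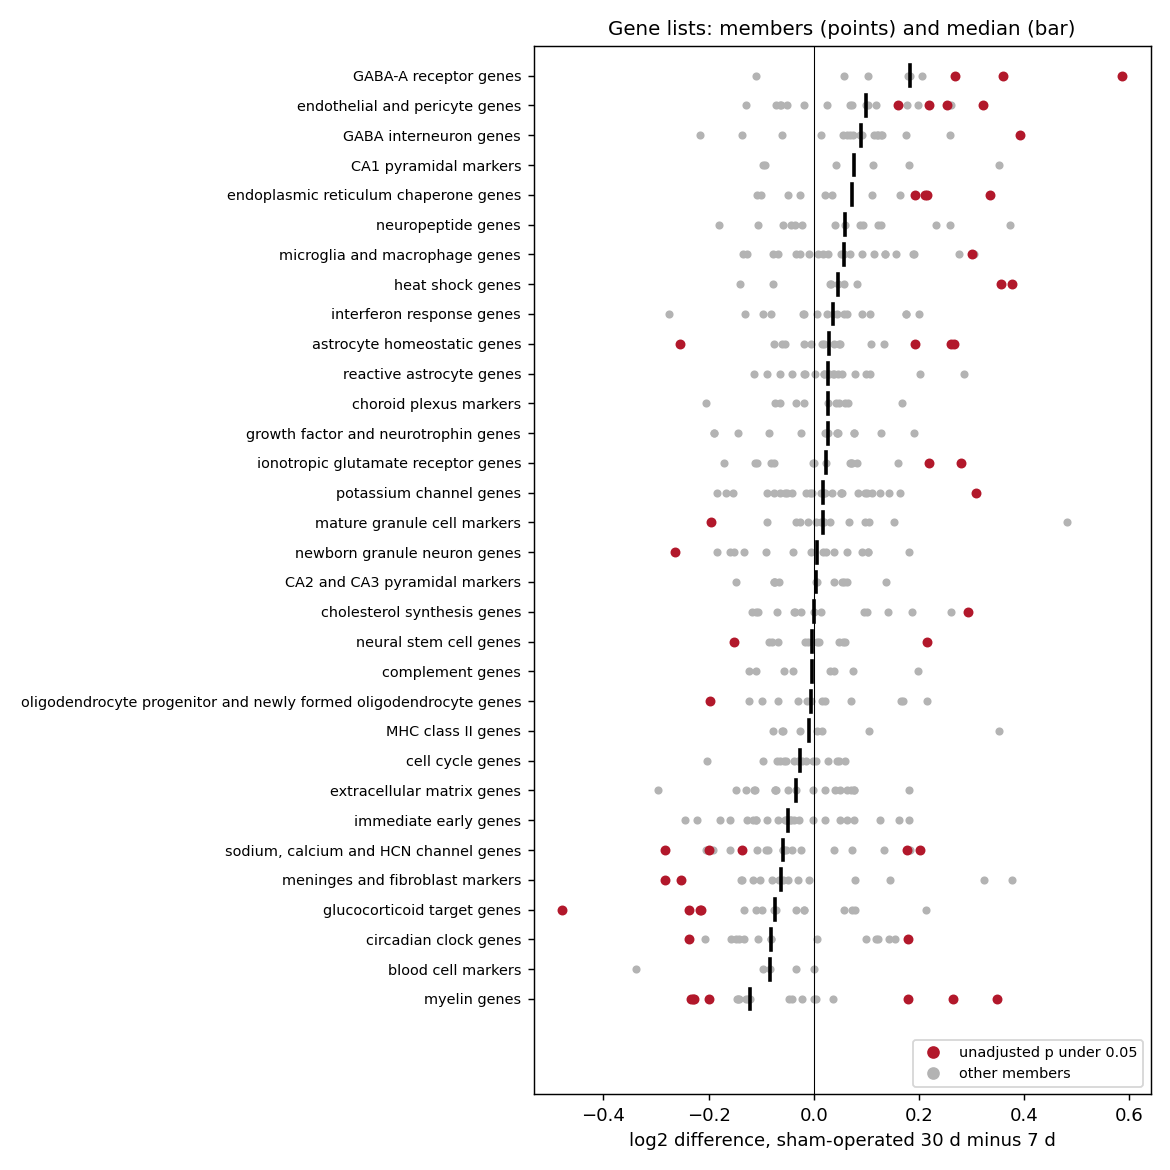
Log2 difference (sham-operated 30 d minus 7 d) of every measured member of the 32 lists. Points are genes, red where the unadjusted p was under 0.05 in limma, and black bars are list medians, ordered from the highest at the top to the lowest. GABA-A receptor genes have the highest median (0.18) and myelin genes the lowest (-0.12).

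The same 30 d minus 7 d comparison was available in the stimulated rats, which share no array with the sham-operated rats, although RMA normalized all 20 arrays together. There 1210 probe sets rose (7.66%) and 928 fell (5.87%) in limma at an adjusted p under 0.05. Without single stimulated arrays these counts ranged over 495 to 1701 higher and 381 to 1367 lower, the lowest of both without replicate 5 at 7 d, and the shares called there rest on them. With each array centred on its median the split was 1528 higher and 549 lower. Of the 1246 probe sets higher in sham-operated rats at an unadjusted p, 1203 (96.5%) had the same sign in stimulated rats and 594 (47.7%) were called higher there. Of the 861 lower ones, 820 (95.2%) had the same sign and 316 (36.7%) were called lower. None was called in the opposite direction. Over all probe sets 72.9% had the same sign, and the correlation of both differences across probe sets was 0.734, which is given as a description since probe sets are not independent replicates. Both differences also ran with the loadings on the axis of spread within the sham-operated groups. These correlations were 0.739 for sham-operated and 0.646 for stimulated rats. The part of that axis in the shared signs was not tested.

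The difference between the time differences of stimulated and sham-operated rats was tested directly. In limma 0 probe sets passed at an adjusted p under 0.05 (smallest adjusted p 0.399). At an unadjusted p under 0.05 there were 682 of 15800, a share under 0.05. An unadjusted p of this test for a single gene is therefore given below as a description only. Among the lead genes, Snrnp70 differed by -0.33 in sham-operated and -0.55 in stimulated rats, and Mier1 by 0.53 and 0.60. Lemd2 differed by -0.31 in sham-operated rats, while stimulated rats gave -0.17 with an adjusted p of 0.0951 in limma. Spaca9 differed by -0.16 in sham-operated rats and -0.02 in stimulated rats.

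Of the 32 lists, 19 had medians of the same sign in stimulated rats and 13 of the opposite sign, and the differences between the lists' medians were not tested. Microglia and macrophage genes had a median of 0.06 in sham-operated rats and -0.27 in stimulated rats, GABA interneuron genes 0.09 and -0.09, interferon response genes 0.04 and -0.21, and myelin genes -0.12 and 0.04. Of the chaperones of the endoplasmic reticulum, 5 of 12 rose and 0 fell in stimulated rats at an adjusted p under 0.05, among them Hspa5 (0.40), Pdia4 (0.31), Hsp90b1 (0.30), Xbp1 (0.56) and Calr (0.33). Of the GABA-A receptor genes, Gabra2 (0.37), Gabra3 (0.98) and Gabra4 (0.65) rose there and 0 fell. Of the glucocorticoid targets 0 rose and 7 of 16 fell, with Per1 at -0.28, Tsc22d3 at -0.31, Angptl4 at -0.20 and Mt1 at -1.31. Mt1 differed more in stimulated than in sham-operated rats by the unadjusted p of that test (0.00716 in limma), which did not pass the adjusted threshold. P2ry12 ran in opposite directions, with 0.28 in sham-operated and -0.41 in stimulated rats (unadjusted p of the difference 0.00387 in limma), also without passing.

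**Figure D5:**
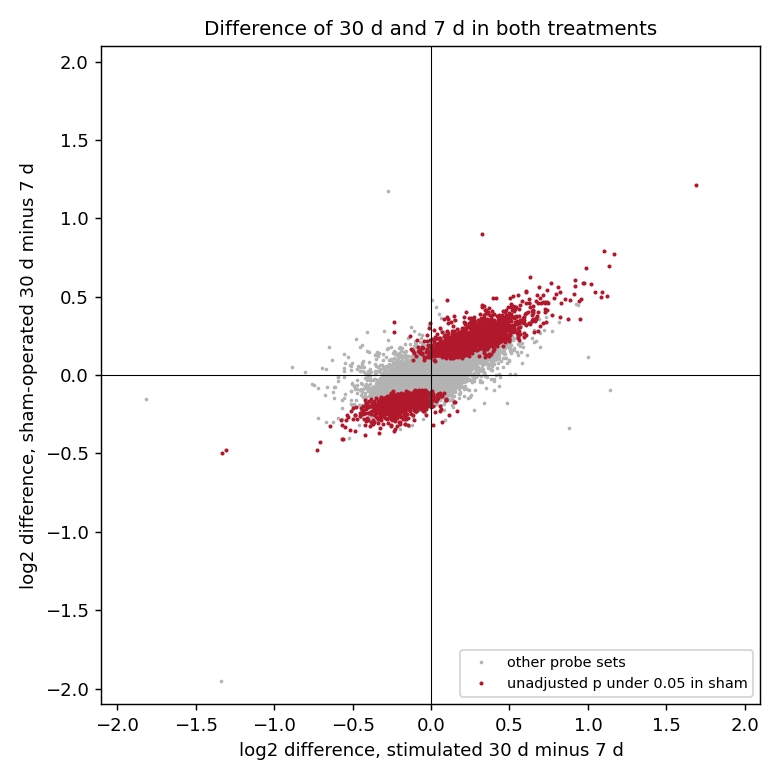
Log2 difference, 30 d minus 7 d, of each of 15800 probe sets in sham-operated rats (vertical axis) and in stimulated rats (horizontal axis). Red points had an unadjusted p under 0.05 in sham-operated rats. Of these, 96.5% of the higher and 95.2% of the lower ones have the same sign on both axes.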

How the data were processed

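Affymetrix Rat Gene 1.1 ST arrays were hybridized with dentate gyrus RNA, 1 rat to an array and 20 rats in all. The deposited values were log2 intensities that the authors made with RMA in oligo 1.22.0, which corrects background, equalizes distributions between arrays and summarizes probes. RMA pulls arrays to one distribution, so a shift shared by most genes cannot be seen. Samples were grouped by their labels.

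Of 29214 probe sets, 18644 carried 1 gene symbol, 962 several and 9608 none in the platform annotation. Only the first kind was used, with symbols and positions from RefSeq (GRCr8), matched for 99.0%. Values were floored at the 20th percentile of all values (3.69), and a probe set was dropped when over 5 arrays lay at or under that floor. The 15800 probe sets that passed belong to 14586 genes, 741 of them with several.

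Differences were fitted in R 4.3.3 with limma 3.58.1 (lmFit, eBayes) in 1 model of 4 groups, with Benjamini-Hochberg adjustment over all 15800 probe sets and a threshold of 0.05. Each probe set was also tested with an exact permutation test over the 10 sham-operated arrays, chosen for all probe sets after seeing the data, whose smallest p is 2 of 252 splits. Scan dates and hybridization batches were not given in the sources used here, so batches could not be tested.

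The members, the gene lists and the rule for naming genes were chosen with earlier results of these data known. The rule took the 10 probe sets with the smallest p in each direction, the CA1 list and the 4 smallest p values of each list. Other genes (Erbb4, Map3k6, Junb, Egr1, Tgfb1, Prox1, Ap1s2, Gfap, Dcx, Cx3cr1, Calr, Creld2, Gabrd, Ldha, Car3 and Pld5) were named after their values were seen. Genes with several probe sets were taken in lists at the one with the highest mean. Listed genes without a single-gene probe set past the filter, 89 of 563, were not analysed here. Alternatives covered the filter, floor, normalization, variance model, array weights, samples, covariates and replicate number.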

Additional observations from a re-analysis of the deposited data

Results flagged for a closer look

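In 10 of 242 groups of values tested, 1 rat stood apart from the other 4 of its sham-operated group by more than the 95% limit of Dixon's test, which chance does in about 1 in 20 groups. At 30 d these were replicate 2 for Wfs1 (8.81, next 7.51), replicate 1 for Hsp90b1 (9.88, next 9.82) and replicate 4 for Bmal1 (7.26, next 7.08). Replicate 3 at 30 d stood apart for Smpd3 (7.26, next 7.60), Pdia4 (6.73, next 6.88), Agt (7.87, next 8.22) and Prox1 (9.82, next 9.57). At 7 d they were replicate 2 for Abcc9 (5.97, next 5.57) and Scn2b (8.43, next 8.81), and replicate 5 for the mean of the potassium channel genes (8.03, next 8.07).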

How the results depend on the processing

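The counts of 0 at an adjusted p under 0.05 in sham-operated rats were found again under every alternative run except array weights (902 higher, 492 lower), the axis of spread within groups as a covariate (691 higher, 273 lower), and the omission of single sham-operated arrays, where the higher count ranged from 0 to 1 (Ntmt2, without replicate 4 at 30 d). At an unadjusted p, leaving out single arrays gave 557 to 1806 higher and 429 to 1290 lower, and leaving out replicate 3 of both groups, an alternative chosen after seeing the data, gave 415 and 297. The exact permutation test over the sham-operated arrays, also chosen after seeing the data, gave 719 higher and 721 lower at a p under 0.05 (n = 5 each). Array weights gave 2355 higher and 1879 lower at an unadjusted p, and the axis covariate 2003 and 1428. Same-numbered rats of both groups deviated together with correlations of 0.236, -0.177, -0.128, 0.0688 and -0.0720, so the numbers were not taken as pairs. With the replicate number as a block, 0 probe sets passed the adjusted threshold, and 1043 were higher and 798 lower at an unadjusted p. In stimulated rats the block gave 917 higher and 707 lower. Centring each array gave 549 lower in stimulated rats. Without single stimulated arrays the counts ranged from 495 to 1701 higher and 381 to 1367 lower. The higher count was 770, 513 and 495 without replicates 2, 4 and 5 at 7 d and 775, 655, 789 and 797 without replicates 1, 3, 4 and 5 at 30 d. The difference between stimulated and sham-operated rats gave 0 to 1 lower probe sets, the 1 without sham-operated replicate 3 at 7 d. The cause of these shifts was not tested. Of the genes named, those with differences near 0 changed sign when an array was left out. They ranged over -0.32 to 0.12 for Fibcd1, -0.025 to 0.077 for Creld2, -0.052 to 0.025 for Prox1, -0.064 to 0.18 for Mpped1, -0.16 to 0.021 for Pou3f1, -0.085 to 0.22 for Ccn3 and -0.029 to 0.11 for Gfap, and Mpped1 was at -0.059 with the CA1 mean as a covariate.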

Other observations

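A few probe sets had separate levels among rats of 1 group, and they were picked after their values were seen. Car3, a carbonic anhydrase, measured 4.62, 7.24, 7.88, 4.53 and 4.56 in sham-operated rats at 30 d, against 4.56, 4.60, 4.67, 4.45 and 4.66 at 7 d. Replicates 2 and 3 at 30 d stood high and the other 8 sham-operated rats were near one level. Stimulated rats held both levels too, with 4.75, 7.61, 4.87, 7.32 and 4.70 at 30 d and 7.49, 6.90, 4.71, 4.57 and 6.93 at 7 d. Pld5, a phospholipase D family member, measured 4.86, 6.51, 6.91, 4.88 and 6.70 at 30 d, against 4.999, 4.78, 4.48, 4.75 and 4.77 at 7 d. In stimulated rats Pld5 was high in 4 of 5 rats at 30 d (6.82, 6.42, 6.58, 4.59 and 6.71) and low at 7 d (4.61, 4.60, 4.62, 4.77 and 4.07).

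Ldha, a subunit of lactate dehydrogenase, had 2 probe sets that disagreed. One measured 5.15, 9.58, 4.45, 9.58 and 10.12 at 30 d, against 9.48, 9.48, 10.18, 10.11 and 9.39 at 7 d, with replicates 1 and 3 at 30 d far below the rest. The other measured 9.42, 9.41, 8.91, 9.24 and 9.27 at 30 d, against 9.25, 9.23, 8.86, 9.16 and 9.07 at 7 d, with a difference of 0.14 (SE 0.119) and no array apart in the same way.

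Differences also ran with the length of the gene in the annotation. When the probe sets were cut into 4 groups of equal size by that length, in the group with the shortest genes (median 3.64 kb) 3.19% were higher and 6.26% lower in sham-operated rats at 30 d at an unadjusted p under 0.05. In the group with the longest genes (median 113 kb) 11.9% were higher and 3.99% lower. The median differences of these 2 groups were -0.02 and 0.02.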
